A study of Mus musculus with 2 samples.

Results

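The Hoxc cluster was taken as the 9 genes Hoxc4, Hoxc5, Hoxc6, Hoxc8, Hoxc9, Hoxc10, Hoxc11, Hoxc12 and Hoxc13, chosen by name, out of 21853 protein-coding genes of GENCODE M21. Its span runs from the start of Hoxc13 to the end of Hoxc4 with 50 kb on each side, which is chr15:102871103-103086852 in mm10, 215.8 kb in length. DNase-seq, which maps open chromatin by where the nuclease DNase I cuts, was run on gastrocnemius, the large calf muscle, of male B6CASTF1/J mice aged 10 days. There was 1 group with 2 libraries, named biological replicates 1 and 2. Both labels name 3 males and give the same donor record, and neither says whether tissue was pooled, so the 2 libraries show no more than their own spread, which may in part be technical. No condition was compared.

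Hox genes encode homeodomain transcription factors that give cells their position along the body axis and, in limbs, along the limb. Genes of a cluster lie in a row in which those at the 3′ end (Hoxc4) act nearer the head and those at the 5′ end (Hoxc13) nearer the tail. Silent Hox genes are held by Polycomb proteins, and CTCF, an architectural DNA-binding protein, is known to bind between domains of Hox clusters. Hindlimb tissues keep expressing posterior Hox genes after birth, and Hoxc10 is known as a gene of the lumbar level and the hindlimb.

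The span held 47 of the 123255 peaks of replicate 1 and 73 of the 150088 peaks of replicate 2. Peak values appear, from their steps, to be tag counts scaled to library depth. Each value was a whole multiple of 1 step per library, 0.00544 in replicate 1 and 0.00587 in replicate 2, and dividing by the step gave tags, of which the peaks of the span held 53 to 1984 in replicate 1 and 23 to 2178 in replicate 2. Markers of the tissue label were read at their promoters. All 8 myofibre genes and the hindlimb genes Pitx1 and Tbx4 had a peak in both replicates, and the forelimb gene Tbx5 had none in either. Over all protein-coding genes 66.0% of promoters had a peak in both, so these counts bear only weakly on the label. The tissue also gave promoter peaks in both replicates for 5 of 5 fibroblast, 5 of 5 endothelial, 5 of 6 adipocyte, 4 of 5 tendon, 3 of 5 Schwann, 3 of 5 erythroid, 3 of 5 neuron, 2 of 5 skin epithelium and 0 of 5 macrophage markers, so peaks in such tissue cannot be assigned to a cell type.

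The strongest open chromatin of the cluster lay at 2 short sites, the promoter of Hoxc10 and a site upstream of Hoxc8. The Hoxc10 promoter peak, chr15:102966521-102966700, had its midpoint at -186 bp relative to the start of Hoxc10 and read 10.7 in replicate 1 and 12.8 in replicate 2. The Hoxc8 upstream peak, chr15:102987521-102987700, had its midpoint at -2997 bp relative to the start of Hoxc8, in an intron of a long noncoding transcript annotated to Hoxc5, and read 10.8 in replicate 1 and 9.0 in replicate 2. Their geometric means over the replicates were higher than those of 97.7% and 96.4% of all paired peaks. Next in the span came chr15:102999221-102999500, between Hoxc8 and Hoxc6, with 4.82 in replicate 1 and 8.09 in replicate 2, higher than 92.1% of all paired peaks.

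The sequences of the Hoxc8 upstream peak and of the Hoxc8 to Hoxc6 peak show where their footprints fell, short stretches that the authors called as protected from cleavage. Each sequence runs 5′ to 3′ on the plus strand of mm10, and capitals mark bases inside a footprint in both replicates.
Hoxc8 upstream peak: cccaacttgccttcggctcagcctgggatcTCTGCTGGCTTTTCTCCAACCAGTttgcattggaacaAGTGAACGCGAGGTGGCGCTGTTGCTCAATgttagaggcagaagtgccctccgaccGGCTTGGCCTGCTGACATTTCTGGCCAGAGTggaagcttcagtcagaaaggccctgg
Hoxc8 to Hoxc6 peak: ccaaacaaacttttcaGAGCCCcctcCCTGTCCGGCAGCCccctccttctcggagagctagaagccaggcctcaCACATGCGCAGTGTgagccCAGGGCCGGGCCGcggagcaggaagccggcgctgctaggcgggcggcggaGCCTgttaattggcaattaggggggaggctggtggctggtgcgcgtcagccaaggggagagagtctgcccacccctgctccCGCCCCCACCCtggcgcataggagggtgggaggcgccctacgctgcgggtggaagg
Bases footprinted in both replicates numbered 85 of 180 in the Hoxc8 upstream peak and 62 of 280 in the Hoxc8 to Hoxc6 peak. No base of the Hoxc8 upstream peak was masked as a repeat.

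The middle footprint of the Hoxc8 upstream peak covered 33 bp in replicate 1 and 31 bp in replicate 2, whereas the median footprint of the span was 10.0 bp wide in replicate 1 and 9.0 bp in replicate 2. Its letters AGGTGGCGC, on the plus strand, resemble the core of the CTCF motif. With 10 bp on each side and the letters AGNNGGCGC in capitals, the site reads as follows.
Hoxc8 upstream site, chr15:102987588-102987616: agtgaacgcgAGGTGGCGCtgttgctcaa

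The CTCF core that was searched for at first, a longer consensus on both strands, matched 0 of 126 footprints of the span in replicate 1 and 0 of 169 in replicate 2. Over all footprints the core matched 2.43% in replicate 1 and 2.07% in replicate 2. Counts of 0 allow shares of up to about 2.38% and 1.78%, by a 1-sided 95% limit of 3 divided by the number of footprints. A 2-sided limit would be higher, and neighbouring footprints lie in the same peaks, so no shortage was read from these counts. AGNNGGCGC, a shorter form chosen after footprints of the span had been seen, matched 4 footprints of the span in replicate 1 and 6 in replicate 2, or 3.17% and 3.55%, against 2.64% and 2.12% of all footprints. Matches in footprints of both replicates numbered 4, and not all of them are printed here. Besides the Hoxc8 upstream site, 2 such sites in a coding exon of Hoxc9 are shown. The first printed below lay only partly inside its footprints, of 7 bp in replicate 1 and 10 bp in replicate 2. It was counted through the 10 bp searched on each side. The second lay inside its footprints, of 13 bp in replicate 1 and 23 bp in replicate 2. It lay in no peak of replicate 1 and in a peak of 1.72 in replicate 2. At both, the letters after the match differ from those of the Hoxc8 upstream site.
Hoxc9 exon site, chr15:102981947-102981975, minus strand: ctggggaaggAGACGGCGCcggacagcgg
Hoxc9 exon site, chr15:102982022-102982050, minus strand: cccgggccgcAGTCGGCGCggcgccccgg
AGNNGGCGC also occurs in the Hoxc8 to Hoxc6 peak printed above, but in no footprint of it. Other high peaks of the span hold these letters as well, so they are not particular to the Hoxc8 upstream site. A match is a description of letters, and CTCF binding was not measured.

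CAGCTG is an E-box of the kind that muscle regulatory factors of the MyoD family bind. It matched 2 footprints of the span in replicate 1 and 3 in replicate 2, shares of 1.59% and 1.78%, against 3.94% and 4.93% of all footprints. These counts are small and neighbouring footprints lie in the same peaks, so no shortage was read from them. The GC box GGGCGG, which SP and KLF factors bind, matched 12 and 15 footprints, or 9.52% and 8.88%, near the 8.95% and 7.78% over all footprints. The homeodomain letters TAATTA matched 2 footprints in replicate 1 and 1 in replicate 2, or 1.59% and 0.592%, against 0.177% and 0.189% of all, which is too few to rank. All motifs were searched on both strands within a footprint and 10 bp on each side, and overlapping matches of different motifs were counted separately. The rest of the motifs matched 0 or 1 footprint each in either replicate. They were TAATGA and TTTATNG of homeodomain and posterior HOX proteins, TGATNNAT of HOX with PBX, TGACAG of MEIS proteins and TGANTCA of AP-1. The others were CGCNTGCGC of NRF1, CCGGAAG of ETS factors, and the NFI full site, the MEF2 site and the DR5 element, named only. Their shares of all footprints ran from 0.0109% (DR5) to 1.82% (TGACAG) in replicate 1. In replicate 2 they ran from 0.0134% (DR5) to 2.06% (TGACAG). Counts of 0 or 1 are too few to set against these shares.

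**Figure D1:**
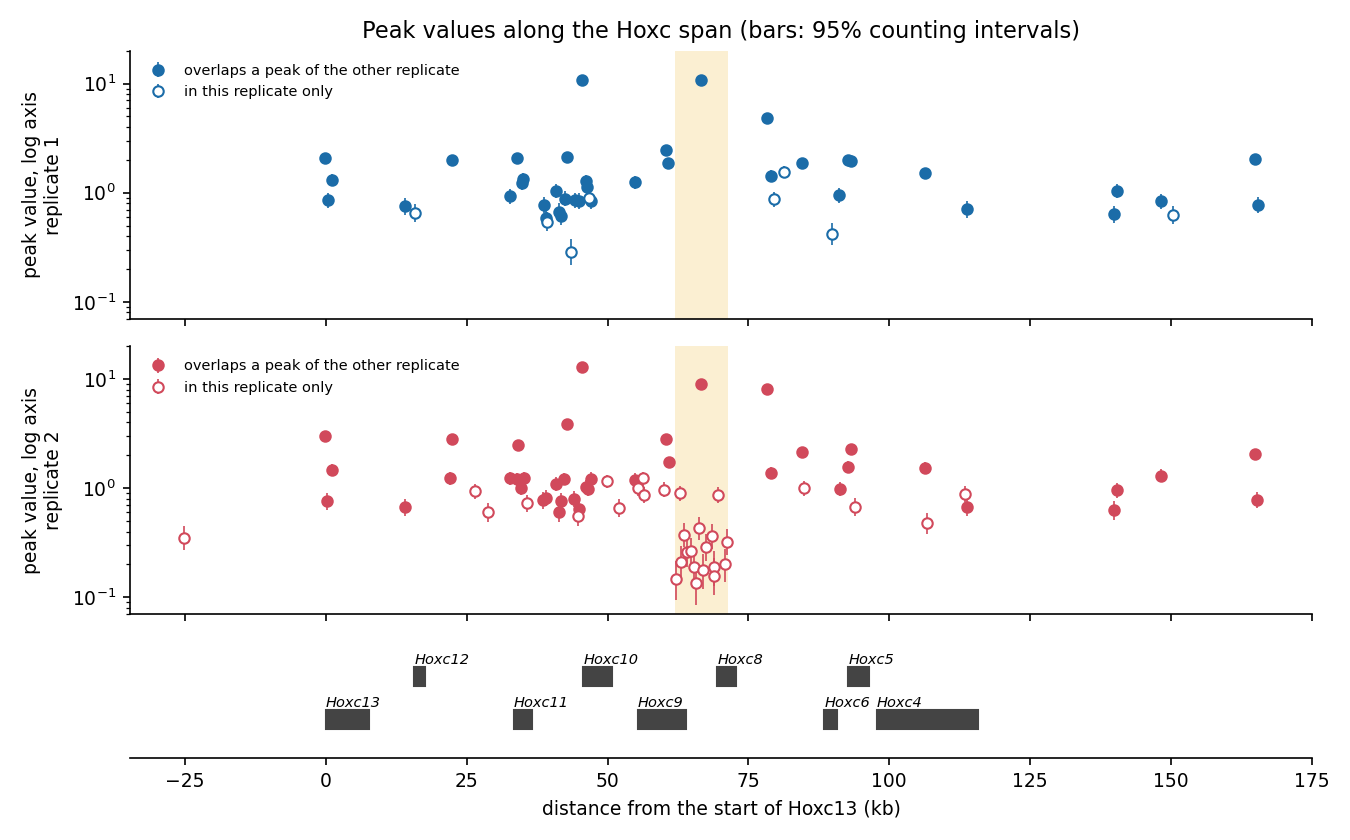
Peak values on a log axis by distance in kb from the start of Hoxc13, for replicate 1 (top) and replicate 2 (middle), with the 9 genes below, all on the plus strand and drawn from Hoxc13 on the left to Hoxc4 on the right. Filled circles overlap a peak of the other replicate, open circles do not, bars are 95% exact Poisson intervals of the tags, and the shaded stretch of 9250 bp holds 1 peak in replicate 1 and 18 in replicate 2.

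Among the promoters, 5 of the 9 had a peak within 500 bp of a coding start in both replicates, those of Hoxc5, Hoxc9, Hoxc10, Hoxc11 and Hoxc13. Over all protein-coding genes 66.0% of promoters were open by that rule. Hoxc10 was the only one of the 5 whose value lay above the median of all open promoters, which was 4.64 in replicate 1 and 6.44 in replicate 2, and it was higher than 84.6% of them. Hoxc13, at the 5′ end of the cluster and known for its role in hair and nails, read 2.10 in replicate 1 and 2.98 in replicate 2. Hoxc5, a gene of the anterior group, read 2.00 and 2.29, and Hoxc9, known in thoracic patterning, read 1.25 and 1.24. The Hoxc9 values are those of different peaks: replicate 1 has 1.25 by the upstream start (position 102976439), where the overlapping peak of replicate 2 reads 1.2, and replicate 2 has 1.24 by the downstream start (position 102977032), where replicate 1 has none. For Hoxc11, a posterior gene active in the hindlimb bud, the promoter window gave 2.09 and 1.21. These peaks reached the window only from its downstream edge, with midpoints 663 bp and 539 bp after the start. The FDR files listed 45.9% of the window in replicate 1 and 0.899% in replicate 2. At Hoxc5 the value of replicate 1 is that of the peak just before the start and the value of replicate 2 that of a peak in the coding exon, and both peaks were present in both replicates. The values of Hoxc11 come from differently bounded peaks: the 420 bp peak of replicate 1 also overlapped a peak of 2.47 in replicate 2 that began beyond the window, in the first coding exon.

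The remaining 4 promoters were lower or closed. Hoxc4 had no promoter peak in replicate 1 and 0.886 in replicate 2, at its downstream start (position 103034395), while its upstream start (position 103018934) had none within 500 bp in either. Hoxc8, a gene of the brachial and thoracic level, had none in replicate 1 and 0.869 in replicate 2. Hoxc12, the neighbour of Hoxc13, had 0.653 in replicate 1 and none in replicate 2. Hoxc6, a gene of the forelimb and thoracic level, had no peak at its coding start in either replicate, with the nearest 1248 bp away in replicate 1 and 2649 bp in replicate 2. A noncoding start annotated to Hoxc6, at position 103000529, did have a peak in both, of 1.42 and 1.39, and another, at position 102998257, had none in either. The noncoding start of Hoxc8 at position 102991889 had none in replicate 1 and 0.323 in replicate 2, and that of Hoxc5 at position 102967443, inside Hoxc10, had 1.27 and 1.03. Hoxc4, Hoxc8 and Hoxc12 thus each differed in call between the replicates, where present at 0.653 to 0.886. In whole tissue a weak peak in many cells and a strong one in few cannot be told apart.

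**Figure D2:**
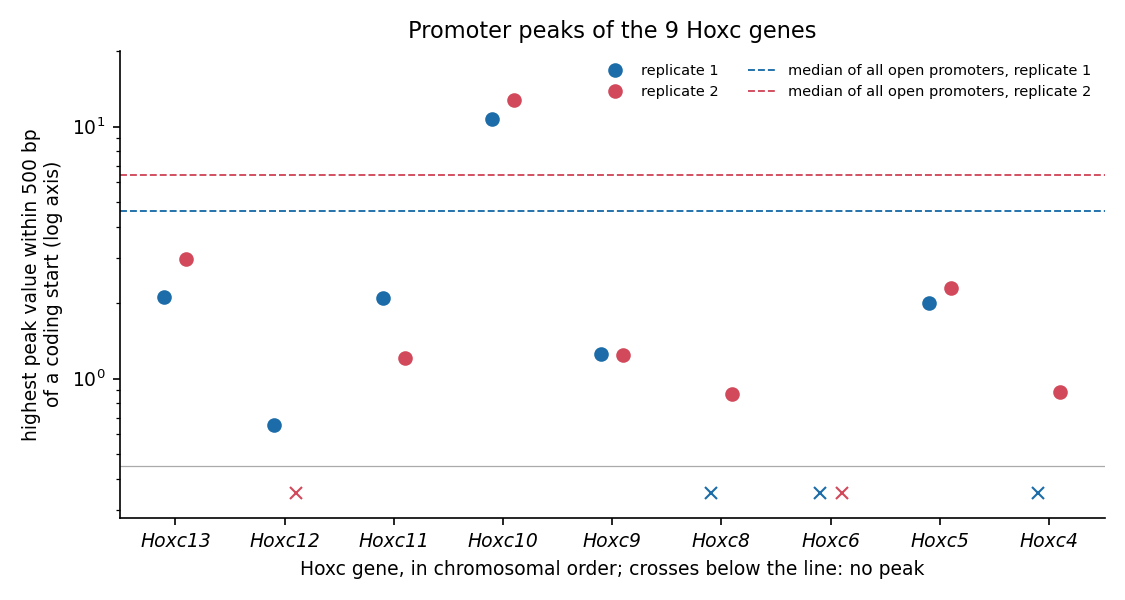
Highest peak value, on a log axis, within 500 bp of a coding start of each Hoxc gene, in chromosomal order from Hoxc13 to Hoxc4. Circles are replicates 1 and 2, crosses mark no peak, and dashed lines give the median of all open promoters in each replicate, 4.64 and 6.44; only Hoxc10, at 10.7 and 12.8, lies above both.

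Among the Hox genes of other clusters open in both replicates, the one nearest to Hoxc10 in log2 promoter value was its paralogue Hoxa10, at a distance of 0.75 over the 2 replicates. Hoxa10 read 7.63 and 8.65, the highest of these genes in each replicate, and Hoxc10 read higher still, so this match follows from rank. The nearest genes of other clusters were Hoxa11 for Hoxc9 (0.21), Hoxa6 for Hoxc11 (0.25) and Hoxd9 for Hoxc13 (0.41). With 2 libraries these distances are descriptions. By cluster, promoters open in both numbered 5 of 9 for Hoxc, 10 of 11 for Hoxa, 3 of 10 for Hoxb and 5 of 9 for Hoxd.

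Open chromatin was also measured per base. Bases that the authors list with a false discovery rate (FDR) under 0.05, called listed bases here, made up 6.93% of the Hoxc span in replicate 1 and 10.0% in replicate 2, against 1.35% and 1.65% of the genome. Between the start of Hoxc13 and the end of Hoxc4 the shares were 10.7% and 16.6%. Spans built in the same way gave 12.8% and 7.77% for Hoxa, 2.84% and 2.31% for Hoxb, and 4.95% and 4.32% for Hoxd. Repeats made up 20.1% of the Hoxc span, against 36.4% of the genome.

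Within the cluster the interval from the start of Hoxc11 to the start of Hoxc10 stood out in both replicates. Its 12369 bp were 36.4% listed in replicate 1 and 32.5% in replicate 2, and held 15 and 16 peaks, of which 13 and 14 overlapped a peak of the other replicate, with 36 and 41 footprints. Besides the Hoxc10 promoter peak it contained chr15:102963741-102963980, at -2936 bp relative to the Hoxc10 start, with 2.14 in replicate 1 and 3.84 in replicate 2, and peaks over the exons and intron of Hoxc11. The body of Hoxc11 itself was 54.2% listed in replicate 1 and 46.1% in replicate 2, the largest body share of the 9 genes in either replicate.

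The other intervals had smaller shares, apart from Hoxc9 to Hoxc8 in replicate 2. From Hoxc13 to Hoxc12 the share was 6.86% in replicate 1 and 4.85% in replicate 2, and from Hoxc12 to Hoxc11, where the antisense noncoding RNA Hotair lies, 6.38% and 6.62%. From the start of Hoxc10 to that of Hoxc9 it was 13.3% and 16.6%. The stretch from Hoxc8 to Hoxc6 was 8.47% and 14.3% listed, that from Hoxc6 to Hoxc5 19.4% and 8.20%, and that from Hoxc5 to Hoxc4 10.0% and 11.8%. Hoxc4 to its end had 2.47% and 5.44%. In the flanks, the 50 kb before Hoxc13 were 0.698% and 1.07% listed, with 1 and 2 peaks, and the 50 kb beyond Hoxc4 were 4.39% and 3.68% listed, with 6 and 5 peaks.

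**Figure D3:**
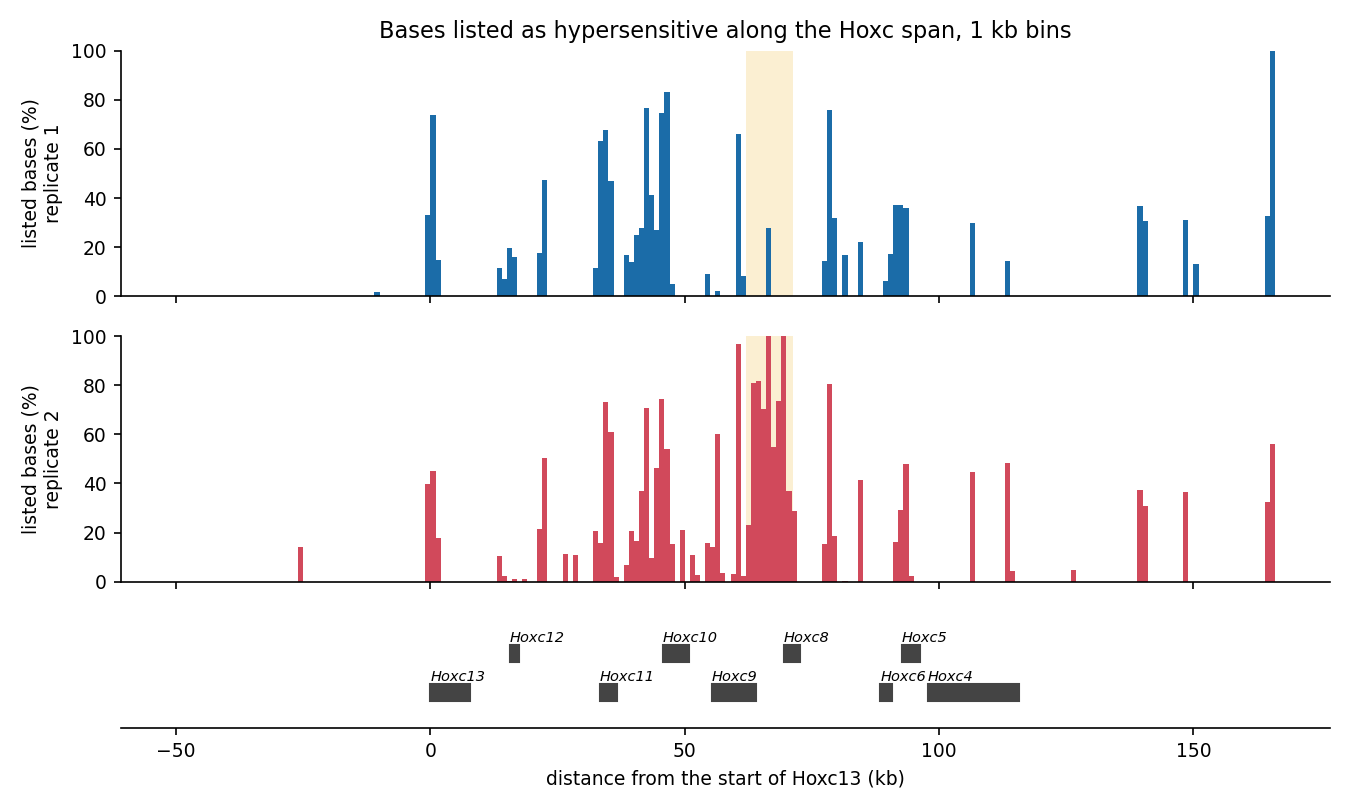
Percentage of bases listed under an FDR of 0.05 in 1 kb bins, by distance in kb from the start of Hoxc13, in replicate 1 (top) and replicate 2 (middle), with the 9 genes below. The Hoxc11 to Hoxc10 interval is 36.4% listed in replicate 1 and 32.5% in replicate 2, and the shaded 9250 bp are 2.99% listed in replicate 1 and 70.1% in replicate 2.

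The interval from Hoxc9 to Hoxc8 gave the largest difference between the replicates among these intervals, with 7.34% of bases listed in replicate 1 and 49.8% in replicate 2. Most of it fell in chr15:102983141-102992390, the 9250 bp from the first to the last of a row of low peaks of replicate 2, which reach from inside Hoxc9 into the body of Hoxc8. There replicate 1 had 1 peak, the Hoxc8 upstream peak of 10.8, and 2.99% of bases listed. Replicate 2 had 18 peaks and 70.1% listed, still 63.5% under an FDR of 0.001. The Hoxc8 upstream peak, present in both replicates, was thus flanked by called chromatin in replicate 2 only.

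Of the 18 peaks of replicate 2 in that stretch, 15 had values under 0.5, from 0.135 to 0.428 with a median of 0.211, or 23 to 73 tags. All 15 belonged to the authors' stricter peak set as well. Outside the stretch, 2 peaks of the span had values under 0.5 in each replicate, the lowest being 0.288 in replicate 1 and 0.352 in replicate 2. Over the whole span, peaks under 0.5 numbered 2 of 47 in replicate 1 and 17 of 73 in replicate 2, against 32.1% and 33.7% of all peaks. The higher peaks there that replicate 1 lacked were those of 0.898 in an exon of Hoxc9 and of 0.869 at the Hoxc8 start. Footprints in the stretch numbered 4 in replicate 1 and 24 in replicate 2.

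**Figure D4:**
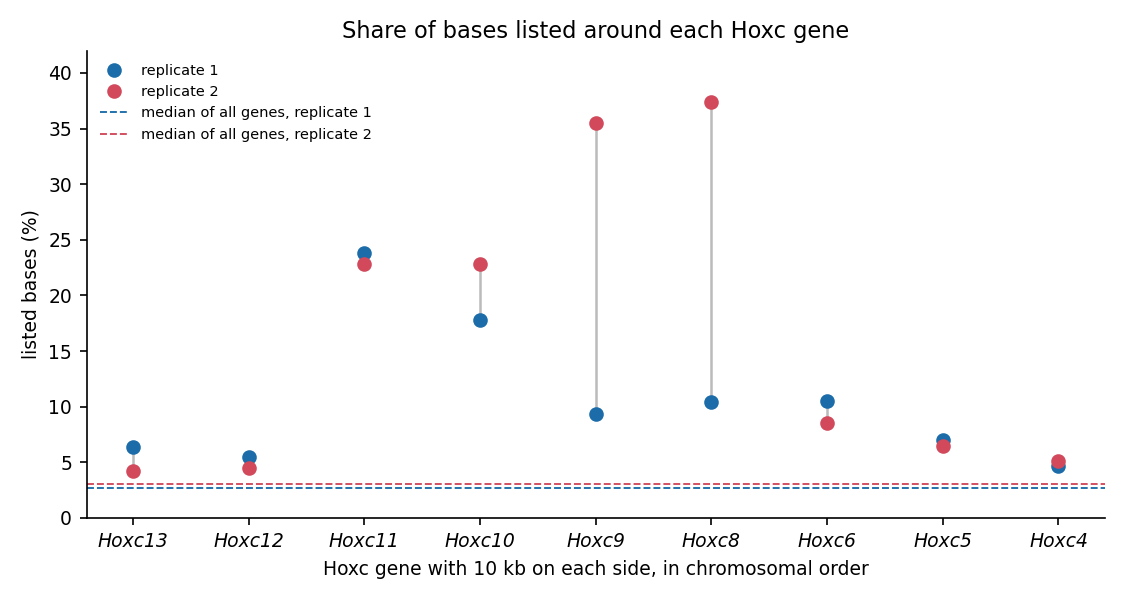
Percentage of listed bases in each Hoxc gene with 10 kb on either side, in chromosomal order, for replicates 1 and 2, joined by a grey line, with the medians of all protein-coding genes (2.68% and 3.06%) dashed. The replicates lie far apart at Hoxc9 (9.34% and 35.5%) and Hoxc8 (10.4% and 37.4%), whose windows both contain the shaded stretch of the profile plot.

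Around each gene, listed bases in the body and 10 kb on either side made up 4.70% to 23.8% in replicate 1 and 4.21% to 37.4% in replicate 2, above the median of all protein-coding genes in both, which was 2.68% and 3.06%. These windows overlap, so neighbours share bases. In replicate 1 Hoxc11 was highest with 23.8%, then Hoxc10 with 17.8%. In replicate 2 Hoxc8 was highest with 37.4%, then Hoxc9 with 35.5%, ahead of Hoxc11 and Hoxc10 with 22.8% each. Without the 9250 bp stretch, a setting chosen after its values were seen, the Hoxc8 window was 15.3% listed in replicate 1 and 15.7% in replicate 2, and the Hoxc9 window 12.4% and 19%.

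Of the 5 Hoxc windows with at least 10% listed in a replicate, 2 (Hoxc8 and Hoxc9) had at least 2-fold more in replicate 2 and 0 at least 2-fold more in replicate 1. Over all protein-coding genes that reached 10% (a minimum set after these values were seen), 5.03% had at least 2-fold more in replicate 2 and 7.59% in replicate 1. Other cells of the tissue were read from the same libraries: promoter values summed over the 8 myofibre markers came to 29.8 in replicate 1 and 51.4 in replicate 2, over the 5 fibroblast markers to 18.1 and 31.1, and over the 5 endothelial markers to 6.03 and 7.10. The sums over the 5 tendon, 5 Schwann, 5 erythroid and 5 neuron markers were 25.5, 16.0, 5.42 and 3.93 in replicate 1, and 29.3, 20.9, 6.83 and 5.09 in replicate 2. Those over the 6 adipocyte markers came to 21.2 in replicate 1 and 23.8 in replicate 2, over the 5 skin epithelium markers to 6.13 and 9.42, with Krt5, Krt14 and Dsg3 without a peak in either. Over the 5 macrophage markers they came to 0 in replicate 1, with 0 of 5 open, and to 2.01 in replicate 2, with Csf1r, Cd68 and C1qa open and Adgre1 and Ptprc without a peak. Sums were thus higher in replicate 2 in each of these classes. The median of all open promoters was also higher there, at 6.44 against 4.64 in replicate 1, so the sums do not measure shares of these cells. The part of these cells in the difference at Hoxc8 and Hoxc9 was not tested.

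Counted over the whole span, 39 of 47 peaks of replicate 1 overlapped a peak of replicate 2, or 83.0% (95% exact binomial interval 69.2% to 92.4%), and 41 of 73 peaks of replicate 2 overlapped a peak of replicate 1, or 56.2% (44.1% to 67.8%). Over all peaks the shares were 78.2% and 64.1%. Of the 73 peaks of replicate 2, 18 lay in the 9250 bp stretch, and 1 of those 18 was shared. The intervals treat neighbouring peaks as independent, so they are too narrow, and no lower sharing in replicate 2 was read from them. All 9 peaks of the span over 2 in replicate 1 and all 11 in replicate 2 were found in the other replicate. Peaks seen in a single library were low, with medians of 0.639 for the 8 of replicate 1 and 0.455 for the 32 of replicate 2, and maxima of 1.56 and 1.24.

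Pairing each peak with its best counterpart gave 38 pairs, with a median log2 ratio of -0.03 (replicate 1 over replicate 2) and a range of -0.84 to 0.38. None of the pairs was 2-fold apart in either direction, which allows a share of up to about 7.89% by the 1-sided limit used for the footprints. A 2-sided limit would be higher, and the pairs are neighbours in 1 locus, so no closer agreement was read from this count. Peaks without a counterpart do not enter the pairs, among them most peaks of replicate 2 in the 9250 bp stretch. Over all 94532 pairs the median was -0.23, with 1.37% at least 2-fold higher in replicate 1 and 9.80% at least 2-fold higher in replicate 2. The plot of paired peaks shows this over the whole range of values.

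**Figure D5:**
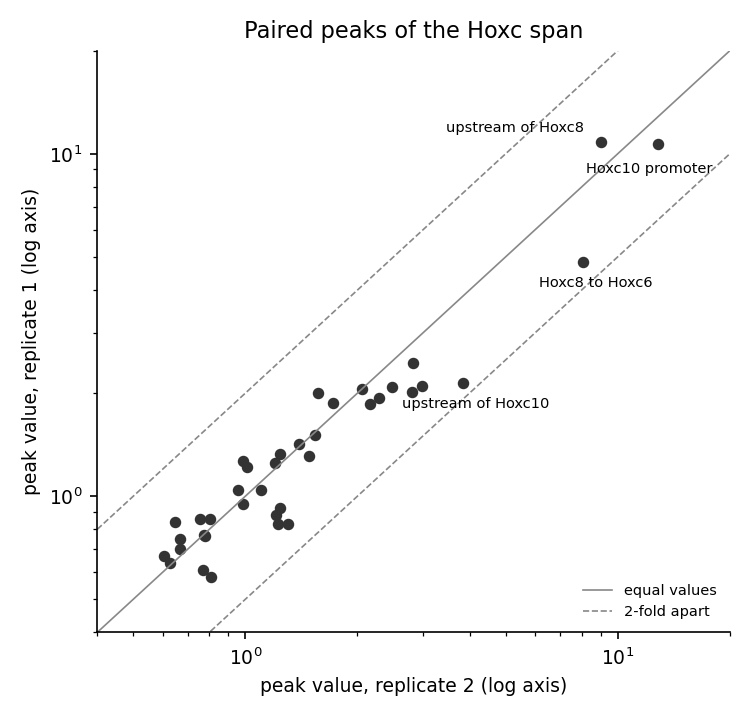
Values of the 38 paired peaks of the Hoxc span, replicate 1 on the y axis against replicate 2 on the x axis, both log. The solid line marks equal values and the dashed lines a 2-fold difference; all points lie between the dashed lines.

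Of the pairs furthest toward replicate 2, the peak at -2936 bp from the Hoxc10 start read 2.14 in replicate 1 and 3.84 in replicate 2, a ratio of 0.557 (0.491 to 0.633). At the Hoxc8 to Hoxc6 peak the ratio was 0.596 (0.547 to 0.649), and at the Hoxc13 promoter 0.705 (0.616 to 0.807). Toward replicate 1, the Hoxc8 upstream peak had 1.2 (1.12 to 1.28) and the promoter peak just before the start of Hoxc5, of 2.00 and 1.57, had 1.27 (1.08 to 1.5), whereas the Hoxc10 promoter peak had 0.837 (0.787 to 0.890). These exact 95% intervals cover counting error only. The remaining named ratios, chosen among the 5 largest in each direction, were 0.639 at 34984 bp beyond the Hoxc4 start, 0.682 in an intron of Hoxc10, 1.29 in its coding exon, 1.31 at -776 bp relative to its start, and 1.21 in the intron of Hoxc11.

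Footprints of the span had a lower share in common than all footprints. Of those in the span, 55 of 126 in replicate 1 overlapped a footprint of replicate 2, or 43.7% (34.8% to 52.8%), and 59 of 169 in replicate 2 did so, or 34.9% (27.8% to 42.6%). Over all footprints 59.8% and 49.3% overlapped. Neighbouring footprints lie in the same peaks, so these intervals are too narrow, and no test of the difference was made.

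The other high peaks of the cluster were spread over its genes. After the first 4 came chr15:102981421-102981620, in an untranslated region of Hoxc9, with 2.45 in replicate 1 and 2.82 in replicate 2, and the Hoxc13 promoter peak, chr15:102920801-102921000. A peak between Hoxc12 and Hoxc11, chr15:102943301-102943520, read 2.01 and 2.81. The peak in the coding exon of Hoxc11, chr15:102954881-102955300, read 2.09 and 2.47, and that in a coding exon of Hoxc5, chr15:103014221-103014500, read 1.94 and 2.29. The last of the 10 was chr15:103085841-103086120, 51585 bp beyond the downstream start of Hoxc4, with 2.05 and 2.06. The coding exon of Hoxc11 was the richest in CpG of the 10, with 41 CpG dinucleotides in 420 bp.

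Noncoding genes of the cluster had low or single-library peaks. Hotair, which is transcribed antisense between Hoxc12 and Hoxc11, had no peak within 500 bp of its start in replicate 1, where the nearest was 4210 bp away, and 0.933 in replicate 2. Mir196a-2, a microRNA between Hoxc10 and Hoxc9 known to target Hoxb8, had none in replicate 1 and 0.663 in replicate 2. Mir615, in the intron of Hoxc5, had 1.94 in replicate 1 and 2.29 in replicate 2, and these are the peaks of the Hoxc5 coding exon. Among the noncoding genes known by number, Gm27443 had none in replicate 1 and 0.933 in replicate 2, from the same peak as Hotair, and Gm28011 and Gm27535 had none and 0.599. Gm27337 and 5730585A16Rik had no peak within 500 bp in either replicate.

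The genes listed as HOX partners, Polycomb and Trithorax members and architectural proteins had open promoters in both replicates, against 66.0% of all protein-coding genes. All 9 genes of the PBX, MEIS and PKNOX families, homeodomain partners of HOX proteins, had promoter peaks in both replicates, from 0.995 to 10.8 in replicate 1 and from 2.06 to 19.9 in replicate 2. The 16 Polycomb and Trithorax genes were likewise open in both, Ezh2 at 11.6 and 15.8 and Kmt2a at 13.5 and 20.3. Kdm6b had the lowest promoter values of the 16, 0.625 in replicate 1 and 0.569 in replicate 2. With 10 kb on either side, however, it was 55.4% listed in replicate 1 and 47.3% in replicate 2. The 6 architectural genes listed, Ctcf, Rad21, Smc1a, Smc3, Nipbl and Wapl, were all open in both. Ctcf itself read 7.08 in replicate 1 and 9.92 in replicate 2. Promoter openness gives no measure of the proteins.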

How the data were processed

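Per the notes deposited with the files, peaks, per-position false discovery rates and footprints were made by the authors for each library from its own filtered alignments to mm10, without pooling. The callers, their versions and the width over which tags were summed were not given in the sources used here. Peak values, as deposited, are a depth-scaled signal, to judge by the values. The deposited per-position q-value (FDR) files list positions under 0.05 only. Deposited footprints carry 0.01 on every line, so only positions were used.

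The wider of the deposited peak sets was used, on chromosomes 1 to 19, X and Y. Peaks belong to the span by midpoint and are shared when overlapping by at least 1 bp. Some peaks of the span lie inside a longer peak of the same library, and each was counted on its own. A promoter is the 500 bp on each side of a coding transcript's start, and its value the highest overlapping peak. In both libraries 100% of values were within 0.05 of a whole multiple of the step, and tags may include PCR copies, so intervals cover counting error only. Reads of CAST alleles may map differently to this B6 reference, which was not analysed here. Sequence and repeats came from GRCm38. Python 3.11.15, numpy 2.4.6, pandas 2.3.3 and scipy 1.17.1 were used, with interval functions tested on simulated data. With 1 group no p-value was computed.

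The members, gene lists, motifs and rules for naming were chosen with earlier results of these data known. Named were all members and their starts, noncoding genes of the span, the 10 highest shared peaks, the 5 largest replicate ratios in each direction, footprints of the highest peaks and examples of the listed cofactor, Polycomb and architectural genes. AGNNGGCGC and the settings without the 9250 bp stretch were added after seeing the data. Alternatives were narrower and wider windows and flanks, the stricter peak set, stricter FDRs, other folds, a larger overlap and each replicate alone. Some sequences and other items are not reported here.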

Additional observations from a re-analysis of the deposited data

How the results depend on the processing

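Promoters open in both replicates numbered 5 of 9, but 3 with 250 bp on each side and 3 in the stricter peak set, where Hoxc5, Hoxc10 and Hoxc13 were kept, and 6 to 7 with a single replicate. Shared pairs numbered 38, 23 in the stricter set and 25 when each peak had to be covered to at least 0.5 of its length. The mean share of listed bases in the span was 8.48%, with 6.93% to 10.0% for single replicates, 4.99% under an FDR of 0.001 and 13.7% without flanks. The median share around the 9 genes was 9.47%, 15.5% for gene bodies, 11.9% with 5 kb on each side and 4.46% under an FDR of 0.001. Pairs 2-fold apart numbered 0, and 3 were apart by 1.5-fold. Footprints with the CTCF core in both replicates numbered 0 (0 to 0 in single replicates), and 4 with the shorter AGNNGGCGC, chosen after seeing the data. The cause of these shifts was not tested beyond each setting's own construction. The other settings left these 6 results within 1.5 times or within the spread of the replicates. Without the 9250 bp stretch, also chosen after seeing the data, the mean share of the span was 7.22%. No paired analysis was possible because there was 1 group. The lowest peak of the span rests on 23 tags.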
